A study of Mus musculus with 5 samples.

Results

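The genes described here are 10 direct transcriptional targets of p53 other than Cdkn1a, the gene of the cell cycle inhibitor p21. They are Mdm2, Bax, Bbc3, Pmaip1, Ccng1, Trp53inp1, Sesn1, Phlda3, Zmat3 and Polk, and they were chosen by name with earlier results of these data known. In all, 22180 genes were tested. Of the 10, 9 had a probe set paired with their symbol alone. Bax, a pore-forming death protein gene, had none and was not analysed here, nor was Trp53, the gene of p53 itself. Expression was measured on 1-colour microarrays in 3 samples of Ter119-selected, CD45-depleted bone marrow cells from Polg mutant mice (Polgtm1Lrsn mt/mt) and in 2 such samples from wild-type (WT) mice (Polgtm1Lrsn wt/wt). Mice homozygous for this allele are known as mtDNA-mutator mice, because their mitochondrial DNA polymerase lacks proofreading. All mice were of C57BL/6 background and came from crosses in which both parents were Atg7 flox/flox and PolG wt/mt and only the father carried an Epo-cre ki allele. The offspring were therefore Atg7 flox/flox in both groups, and the labels do not say which of them carried Epo-cre. The series' title calls the mtDNA-mutator mice aged and its design text calls the mice phlebotomized, while the treatment label reads none and no age was given. The labels do not say whether the arrays came from separate animals, so each p-value reflects the spread among these samples, which may be technical.

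p53 is a transcription factor that is stabilised when DNA is damaged, when ribosome assembly is disturbed or when a cell is otherwise stressed. It binds a sequence made of a pair of adjacent similar 10-base elements and turns on genes that stop the cell cycle, repair DNA, adjust metabolism or start cell death, and it also turns on Mdm2, whose product marks p53 for destruction. In erythroid cells p53 is best known from anaemias caused by faulty ribosome assembly, in which its activation limits the output of red cells.

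Values are log2 expression values as deposited, so a difference of 1 is a 2-fold difference. Array medians lay between 5.10 and 5.13 and lower quartiles between 3.95 and 4.02. No signal over background was known for any probe set. Markers of erythroid cells were bright, with a mean level over 10 of 12 listed genes of 11.90 to 11.97 in Polg mutant samples and 12.09 and 12.30 in WT samples. Slc4a1, the red cell anion exchanger gene, was the brightest at 13.37 to 13.42 in Polg mutant samples and 13.46 and 13.58 in WT samples. Neutrophil markers were also present despite the CD45 depletion, and the 12 listed genes averaged 9.12, 9.53 and 7.85 in Polg mutant samples, against 8.83 and 7.58 in WT samples. The brightest of them, the elastase gene Elane, read 11.75, 11.35 and 10.89 in Polg mutant samples, against 11.61 and 10.55 in WT samples. Means of the macrophage, megakaryocyte, B lymphocyte, T and NK lymphocyte, and progenitor lists lay between 4.64 and 6.65 on the 5 arrays. Their brightest genes were Cd68 (7.10 to 8.08 in Polg mutant samples, 7.33 and 7.75 in WT samples), the platelet glycoprotein gene Gp9 (8.84 to 9.23, against 10.41 and 10.42), Igll1 (5.45 to 6.97, against 6.51 and 7.73), Nkg7 (7.71 to 8.56, against 7.32 and 8.74) and Myb (8.89 to 9.66, against 8.74 and 9.51). Gp9 was the only 1 of 8 measured megakaryocyte genes wholly below WT (12.5%, against 9.73% of all genes), and the other 7 overlapped between the groups. Polg read 6.97 on all 5 arrays, which does not test the labels, because this allele is known as a point substitution that leaves the transcript in place. Atg7 read between 7.71 and 7.74.

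Ccng1, Trp53inp1, Zmat3 and, by a small margin, Bbc3 were higher on every Polg mutant array than on either WT array. Polk was lower on every Polg mutant array, and Mdm2, Pmaip1, Sesn1 and Phlda3 overlapped between the groups. The targets therefore did not all differ in 1 direction: 5 of the 9 differences were positive and 4 negative, with a median of 0.14 against 0 over all genes tested. The 4 genes that lay wholly above WT were 44.4% of the 9, where 8.36% of all genes tested did so, and the 1 gene wholly below was 11.1%, against 9.73% of all genes. In either direction together these were 5 of 9, or 55.6%, against 18.1% of all genes. With limma, 0 of the 9 genes had an adjusted p under 0.05, as had 0 of all 22180 genes in either direction (0%). At an unadjusted p under 0.05, Ccng1 and Zmat3 were higher (22.2% of the 9, against 4.18% of all genes) and Polk was lower (11.1%, against 5.33%), where 9.51% of all genes reached this p in either direction. These shares depend on the genes counted, since 67.9% of all genes had values tied between arrays. Among 8340 genes with a log2 over 6 on at least 2 arrays, 1864 reached this p, as did 2 of 7 targets. Among 7112 genes without ties 1536 did, as did 4 of 4 targets. That filter removed Bbc3 and every target whose groups overlapped. It depends on the values being compared, so the 4 of 4 is not a separate result. Leaving out WT replicate 1 put 6 of the 9 genes wholly above, adding Mdm2 and Pmaip1 (66.7%, against 22.2% of all genes with that array left out). Leaving out WT replicate 2 put 3 wholly below, namely Mdm2, Sesn1 and Polk (33.3%, against 20.8% of all genes). Sesn1 and Polk lay wholly below without Polg mutant replicate 1 (22.2%, against 11.7%).

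**Figure D1:**
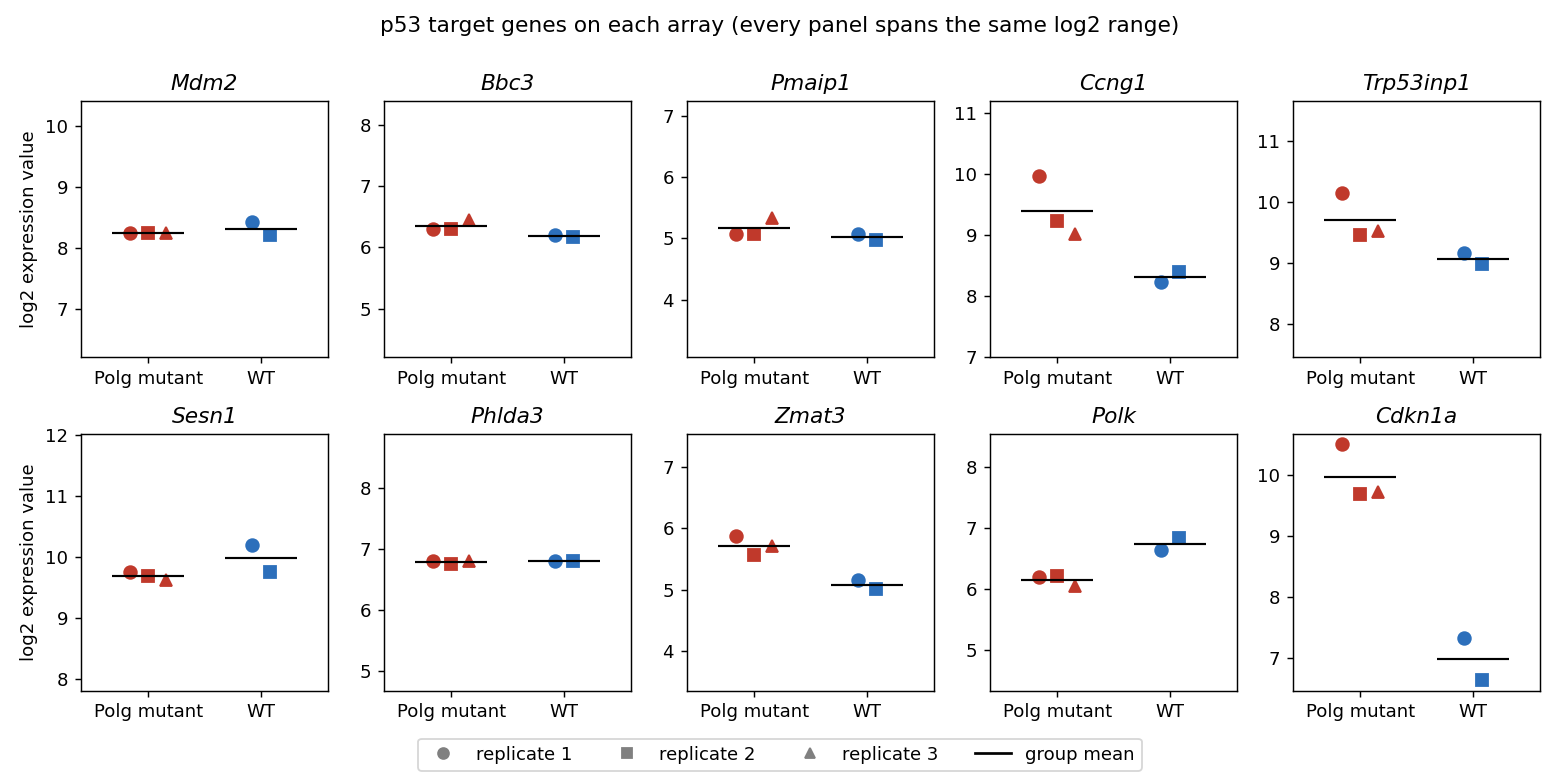
Deposited log2 expression values (vertical axis) of the 9 measured p53 targets and of Cdkn1a on each array, with 3 Polg mutant samples on the left and 2 WT samples on the right of each panel and a line at each group mean. Every panel spans the same log2 range, and the separation of the groups is widest in Cdkn1a (9.69 to 10.50 against 6.64 and 7.33) and then in Ccng1 (9.01 to 9.96 against 8.24 and 8.40).

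Ccng1 encodes cyclin G1, a p53-induced cyclin that recruits a phosphatase to MDM2 and so takes part in the feedback on p53. It read 9.96, 9.23 and 9.01 in Polg mutant samples, against 8.24 and 8.40 in WT samples. The lowest Polg mutant value was 0.61 above the highest WT value, although the Polg mutant samples themselves spread widely. The difference was 1.08 ± 0.34 (SE; 3 Polg mutant and 2 WT arrays), a 2.12-fold higher level, with a 95% interval from 0.11 to 2.05 and a limma adjusted p of 0.467. By size it ranked 152 among the 22180 genes. Without Polg mutant replicate 1, the highest sample, the difference was 0.80.

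Cdkn1a, which stops the cell cycle by inhibiting cyclin-dependent kinases, is the best known p53 target and is given for comparison. It read 10.50, 9.69 and 9.72 in Polg mutant samples, against 7.33 and 6.64 in WT samples, and its difference of 2.99 ± 0.38 (SE) ranked 8 by size among all genes (limma adjusted p = 0.224). The point estimate was larger than that of each of the 9 other targets, and its 95% interval of 1.89 to 4.08 overlapped only that of Ccng1 among them. Polg mutant replicate 1 was the highest of the Polg mutant samples in Cdkn1a, Ccng1, Trp53inp1 and Zmat3 alike. Of the 9 other targets, replicate 1 was the highest in 4, which included Sesn1. Bbc3 and Pmaip1 were highest in replicate 3 and Polk in replicate 2. The progenitor marker mean was also highest in replicate 1 (6.51, with 6.32 and 6.17 in replicates 2 and 3), while the neutrophil mean was highest in replicate 2 (9.53, with 9.12 in replicate 1). Within the neutrophil list, Elane (11.75), Mpo (11.64), Ctsg (10.86) and Prtn3 (9.73) were highest in replicate 1, and the other genes in replicate 2. Macrophage, B lymphocyte, and T and NK lymphocyte means were highest in replicate 1 (5.78, 5.29 and 4.82), and the megakaryocyte mean in replicate 2 (6.15). The part of these cell types in the differences was not tested. In such bulk samples more cells that express a gene and more RNA per cell cannot be told apart.

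The RefSeq sequence (GRCm38.p6) before the transcription start of Ccng1 and of Cdkn1a is shown because both held a near match to the 20-base p53 full-site consensus, which was searched on both strands with the fixed C and G of each 10-base element required. In each window, the 250 bases upstream of an annotated start, 5′ to 3′ on the strand of the gene, the match is in capitals. Ccng1 lies on the minus strand at chr11:40755287-40755536, and the Cdkn1a window lies on the plus strand at chr17:29090729-29090978, before the more upstream of its 2 annotated starts.
Ccng1: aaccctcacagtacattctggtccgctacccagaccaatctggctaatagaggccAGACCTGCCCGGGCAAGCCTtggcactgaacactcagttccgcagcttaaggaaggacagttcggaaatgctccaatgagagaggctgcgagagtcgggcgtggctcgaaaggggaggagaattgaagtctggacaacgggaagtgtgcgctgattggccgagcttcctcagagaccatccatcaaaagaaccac
Cdkn1a: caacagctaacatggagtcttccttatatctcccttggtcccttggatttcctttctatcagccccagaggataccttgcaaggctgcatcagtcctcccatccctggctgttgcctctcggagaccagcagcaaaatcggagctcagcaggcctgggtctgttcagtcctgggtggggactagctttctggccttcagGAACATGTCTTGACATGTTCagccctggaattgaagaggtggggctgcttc
Each match departed from the consensus at 1 base, and it began 195 bases upstream of the start in Ccng1 and 51 bases upstream in Cdkn1a. Of all 32851 promoter windows of 300 bases in the table (250 before to 50 after a start), 22 (0.067%) held a match with at most 1 such departure. The matches describe the letters only and show no binding.

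Windows were listed for 7 of the 10 targets, 11 windows in all. At up to 3 departures, 3 of the 11 windows held a match, each in a different gene, where 1.38% of all windows and 1.63% of all genes with a window did so. Besides Ccng1 these were Bbc3 and Sesn1, with 3 departures each. The Bbc3 window is shown because this gene was also wholly above WT, and the plus-strand sequence at chr7:16309333-16309582 precedes the first of its 3 listed starts.
Bbc3: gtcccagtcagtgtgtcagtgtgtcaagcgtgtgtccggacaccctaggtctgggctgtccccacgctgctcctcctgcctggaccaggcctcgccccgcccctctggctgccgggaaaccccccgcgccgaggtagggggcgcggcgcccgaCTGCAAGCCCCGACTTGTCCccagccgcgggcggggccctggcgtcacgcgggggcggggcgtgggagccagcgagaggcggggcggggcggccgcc
The Sesn1 match, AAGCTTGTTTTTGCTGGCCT, began 173 bases upstream of a start on chromosome 10, in a gene whose groups overlapped. The letters searched were absent from the listed windows of Mdm2, Bax, Phlda3 and Polk, which says nothing of sites elsewhere in these genes.

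Trp53inp1 encodes a stress-induced protein that helps p53 turn on death genes and also binds ATG8 proteins of the autophagy machinery. It read 10.14, 9.46 and 9.53 in Polg mutant samples, against 9.16 and 8.98 in WT samples. The groups were separated by 0.29, and 1 Polg mutant sample stood above the other two. The difference was 0.64 ± 0.26 (SE), or 1.56-fold, with a 95% interval of -0.10 to 1.38 and a limma adjusted p of 0.638. It was 0.42 without Polg mutant replicate 1.

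Zmat3 encodes a zinc-finger RNA-binding protein, also called Wig-1, that acts on mRNA splicing and stability downstream of p53. It read 5.88, 5.56 and 5.72 in Polg mutant samples, against 5.15 and 5.01 in WT samples, so that the WT values lay near the array median with no evidence of signal over background. The samples within each group lay close together, and the gap between groups was 0.41. The difference was 0.64 ± 0.12 (SE; 95% interval 0.30 to 0.98), also 1.56-fold, with a limma adjusted p of 0.269. It stayed between 0.56 and 0.72 when single arrays were left out. Another probe set, paired with both Zmat3 and a RIKEN gene and so assignable to neither, read 4.76, 4.76 and 4.42 in Polg mutant samples, against 4.76 and 5.15 in WT samples, and did not show the difference.

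Among the death genes, Bbc3, which encodes the BH3-only protein PUMA, read 6.30, 6.30 and 6.44 in Polg mutant samples, against 6.20 and 6.16 in WT samples. All Polg mutant samples were higher, but the gap was 0.10 and the fold 1.12. The difference of 0.17 ± 0.06 (SE) had a 95% interval from -0.001 to 0.33 and a limma adjusted p of 0.529. Pmaip1, which encodes NOXA, another BH3-only protein, read 5.08, 5.08 and 5.34 in Polg mutant samples, against 5.08 and 4.97 in WT samples, all near the array median. Both Polg mutant samples at 5.08 equalled the higher WT sample, and the difference of 0.14 had a 95% interval of -0.17 to 0.45 (limma adjusted p = 0.647).

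Mdm2, the ubiquitin ligase gene of the feedback loop, read 8.24 on all 3 Polg mutant arrays, against 8.42 and 8.21 on the WT arrays. The Polg mutant value lay between both WT values. The difference of -0.07 ± 0.07 (SE) had a 95% interval of -0.28 to 0.14 (limma adjusted p = 0.741). That interval leaves out a 2-fold difference in either direction, but it too draws on 3 identical Polg mutant values and so may be too narrow. Its sign rested on the WT sample used, with -0.18 without WT replicate 2 (limma adjusted p = 0.0225) and 0.037 without WT replicate 1 (adjusted p = 0.121), in fits that take the spread from the Polg mutant arrays alone. Since the Polg mutant values were identical in the deposited table, their spread of 0 understates the error of these fits.

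Phlda3, whose product competes with AKT for membrane lipids, read 6.80, 6.76 and 6.80 in Polg mutant samples, against 6.80 on both WT arrays. Its difference of -0.01 ± 0.02 (SE) had a 95% interval of -0.08 to 0.05 (limma adjusted p = 0.807). Sesn1, a sestrin gene whose product restrains mTORC1 and supports antioxidant defence, read 9.76, 9.70 and 9.63 in Polg mutant samples, against 10.20 and 9.76 in WT samples. The highest Polg mutant sample equalled the lower WT sample, and WT replicate 1 stood above all the others. The difference of -0.28 ± 0.15 (SE; 95% interval -0.72 to 0.15, limma adjusted p = 0.638) was -0.06 without WT replicate 1 and -0.50 without WT replicate 2.

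Polk encodes DNA polymerase kappa, which copies past damaged bases and is a p53 target in the mouse. It read 6.19, 6.22 and 6.04 in Polg mutant samples, against 6.64 and 6.83 in WT samples. All Polg mutant samples were lower than both WT samples, by a gap of 0.42. The difference was -0.59 ± 0.09 (SE; 95% interval -0.85 to -0.32), 0.666 times the WT level, with a limma adjusted p of 0.240, the smallest of the 9 targets. Its range with single arrays left out was -0.68 to -0.49. Erythroid markers also lay lower in the Polg mutant samples, with 9 of the 10 measured wholly below WT (90%, against 9.73% of all genes) and a median of -0.28. The part of these markers in the difference of Polk was not tested.

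**Figure D2:**
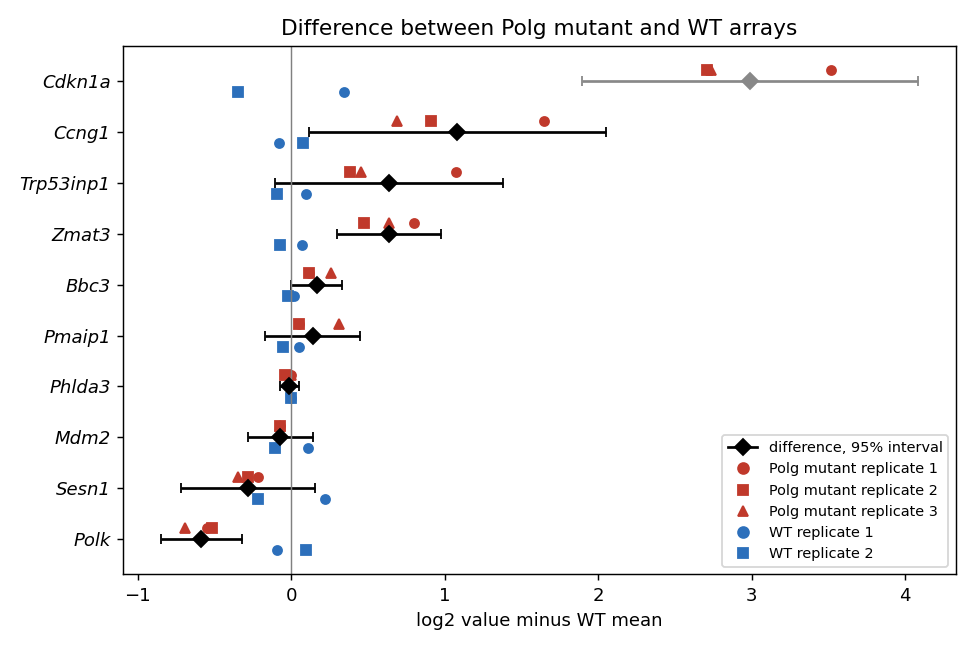
Log2 value minus the WT mean for each array (points, Polg mutant above and WT below each line) and the Polg mutant minus WT difference with its 95% interval from limma (diamonds and bars) for the 9 measured targets and Cdkn1a, in order of difference. Cdkn1a, Ccng1 and Zmat3 have intervals above 0, Polk has its interval below 0, and the intervals of the other 6 genes include 0.

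Other known p53 targets were counted in 4 lists by role, 44 measured genes of 48. Of these, 8 lay wholly above WT (18.2%, against 8.36% of all genes tested) and 7 wholly below (15.9%, against 9.73%), and the median difference was 0.06. With limma, 4 were higher and 4 lower at an unadjusted p under 0.05, 9.09% in each direction (against 4.18% and 5.33% of all genes), and 0 passed after adjustment. The larger set thus held genes wholly above and wholly below WT. Among the 9 targets only Polk lay wholly below, a share near that of all genes.

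Of the metabolism and redox targets, 12 measured, 3 were wholly above WT (25%, against 8.36% of all genes) and 0 below (0%, against 9.73%), with a median of 0.13. Ddit4, which encodes the mTORC1 inhibitor REDD1, read 7.60, 7.11 and 7.60 in Polg mutant samples, against 5.80 and 5.11 in WT samples, a difference of 1.98 ± 0.30 (SE, limma adjusted p = 0.238). Sesn2, the sestrin gene that ATF4 also induces, read 9.27, 8.86 and 8.98 in Polg mutant samples, against 8.30 and 7.46 in WT samples, a difference of 1.15 ± 0.31 (SE, limma adjusted p = 0.397). Its point estimate was thus opposite in sign to that of Sesn1, whose difference was -0.28. The lipid hydrolase gene Abhd4, also wholly above WT, differed by 0.48. The peptide transporter gene Tap1 differed by 0.28, with overlapping groups.

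Of 13 measured targets of cell death, 4 were wholly above WT (30.8%, against 8.36% of all genes) and 2 below (15.4%, against 9.73%). Of the 4, Aen was separated from WT by 0.31, but Bid by only 0.04, Eda2r by 0.018 and Fas by 0.006. The WT values of Fas (3.27 and 3.46) and Eda2r (3.50 and 3.59) lay below the lower quartile of the arrays. The nuclease gene Aen differed by 0.49 ± 0.10 (SE, limma adjusted p = 0.287) and Bid, a BH3-only gene, by 0.17. Steap3, which reduces endosomal iron in erythroid cells, differed by -0.70 ± 0.14 (SE, limma adjusted p = 0.280), and Pidd1, a death-domain protein gene, by -0.50. Of 13 measured growth arrest and checkpoint targets, 1 was wholly above (7.69%, against 8.36% of all genes) and 4 below (30.8%, against 9.73%). The 1 above was Psrc1, a spindle-associated protein gene, at 0.51, which is named after its value was seen. The 4 below were the phosphatase gene Ptp4a3 at -0.15, Ppm1d, whose phosphatase acts on p53, at -0.36, the microtubule-binding protein gene Gtse1 at -0.30 and the antiproliferative gene Btg2 at -0.42. Of 6 measured repair and nucleotide supply targets, 0 were above (0%, against 8.36% of all genes) and 1 was below (16.7%, against 9.73%), the DNA ligase gene Lig1 at -0.49. Ercc5 and Xpc, of nucleotide excision repair, and Pold1, the catalytic subunit of DNA polymerase delta, differed by 0.19, 0.14 and -0.23, with overlapping groups.

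Of 22 measured genes of p53 regulators, 2 lay wholly above WT (9.09%, against 8.36% of all genes) and 4 below (18.2%, against 9.73%), with a median of -0.01 and 0 past the limma threshold over all genes. Mdm4, the MDM2 relative that blocks p53's activation domain, read 8.74, 8.43 and 8.62 in Polg mutant samples, against 8.21 and 8.01 in WT samples. All Polg mutant samples were above both WT samples, with a difference of 0.49 ± 0.12 (SE, limma adjusted p = 0.373). The checkpoint kinase gene Atr differed by 0.50, Usp7, which deubiquitinates MDM2 and p53, by -0.45, and the deacetylase gene Sirt1 by -0.33.

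Downstream of p21, the DREAM complex represses cell cycle genes. Of 14 measured genes listed as lowered in this way, 13 lay wholly below WT (92.9%, against 9.73% of all genes) and 0 above (0%, against 8.36%), with a median of -0.36. At an unadjusted limma p under 0.05, 10 were lower (71.4%, against 5.33% of all genes), and 0 passed after adjustment. The smallest p belonged to cyclin A2 (Ccna2, -0.33), survivin (Birc5, -0.31), polo-like kinase 1 (Plk1, -0.40) and the phosphatase gene Cdc25c (-0.52). The erythroid markers stood at a median of -0.28 beside them, and the part of cell composition in these differences was not tested.

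**Figure D3:**
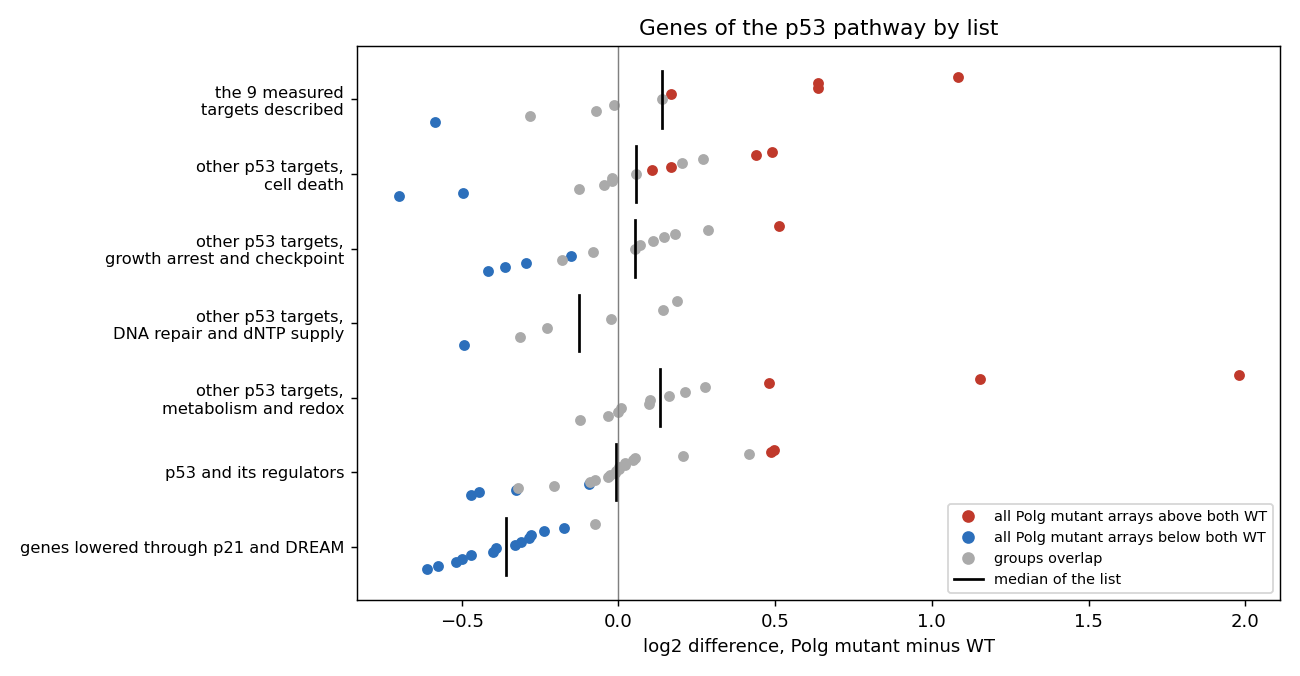
Log2 difference, Polg mutant minus WT, of each measured gene (points) in the 7 lists of the p53 pathway, coloured by whether all 3 Polg mutant arrays lay above both WT arrays, below both, or overlapped with them, with a bar at each list's median. Target lists spread on both sides of 0, with Ddit4 at 1.98 farthest to the right, while all 14 genes listed as lowered through p21 and DREAM lie left of 0.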

How the data were processed

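The authors deposited 1 table of log2 values for 41345 probe sets on 5 arrays, per the file headers. RMA and Partek 6.5 are the tools listed, per the submitters' processing notes, which do not say what each did. The log2 scale was taken from the range of the values, and no genome build behind the probe sets is stated in the sources used here. The platform's annotation gave each probe set its gene (1 symbol for 23521, several for 1814, none for 16010), and the brightest single-symbol probe set of each gene gave 22180 genes. Sample RNA was 100 ng per the labels' protocols.

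Genotype was the single term of a linear model in limma 3.58.1 (R 4.3.3) with empirical Bayes moderation, two-sided, with Benjamini-Hochberg adjustment over all genes and a threshold of 0.05. Fold and log2 differences are Polg mutant minus WT. Deposited values are often tied between arrays (67.9% of genes, including 5 of the 9 targets), which lowers variance estimates. The fit was tested on simulated data. An exact permutation test of 1 gene cannot go below p = 0.1, so none is given.

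The members and gene lists were chosen with earlier results of these data known. Named genes were all members, Cdkn1a, Trp53, Mdm4, Polg and Atg7, up to 4 genes of smallest p in each other pathway list, and the brightest marker of each cell type list. Psrc1, Fas, Eda2r, Mpo, Ctsg and Prtn3 are named besides, after their values were seen. Alternatives tried were left-out arrays, the replicate number as a block, other moderation, other scaling, filters on dim or tied genes, and the mean of probe sets. The number of arrays limits the precision.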

Additional observations from a re-analysis of the deposited data

How the results depend on the processing

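Of the 9 targets, none passed the threshold with limma in any alternative that kept all arrays. Leaving out 1 array gave 0 to 1 targets past the threshold, the 1 being Mdm2 without WT replicate 2, and the added choice to leave out both WT replicate 2 and Polg mutant replicate 3, the arrays with the lowest neutrophil means in their groups, gave 2 (Mdm2 at -0.18 and Bbc3 at 0.10). In that fit the remaining Polg mutant arrays hold identical values of Mdm2 and of Bbc3, so both SE (0.0017) come from ties and neither p measures a spread between samples. Ccng1, Trp53inp1 and Zmat3 kept a positive sign and Polk a negative one in every alternative in which they were measured. Mdm2 ranged from -0.18 to 0.037 with arrays left out. The number of targets wholly above WT was 4 to 6 where all 9 were measured. It was 3 of the 7 with a log2 over 6 on at least 2 arrays, and 3 of the 4 without ties. The number wholly below was 2 after renewed quantile normalization, 1 to 3 with 1 array left out and 3 in the added choice. Shares over all genes were computed only for the main comparison and with 1 array left out. With 1 array left out, 10.4% to 23% of all genes lay wholly above WT and 11.7% to 28.1% wholly below.

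The median difference of the targets was 0.05 to 0.18 with 1 array left out and 0 in the added choice. It was 0.64 over the 4 targets without ties and -0.013 over the 7 brighter targets, with a log2 over 6 on 2 or more arrays, in each case because other genes made up the set. Over all genes, those higher and lower past the threshold numbered 4 and 1 without moderation, 10 and 2 after quantile normalization, 6 and 5 among the brighter genes, 73 and 41 without ties, 0 to 713 and 0 to 1068 with 1 array left out, and 1127 and 921 in the added choice. With 1 Polg mutant array left out, these counts were 0 in both directions, so the larger ones arose only without a WT array. Those fits and the added choice keep 1 WT array, and their spread comes from the Polg mutant arrays alone, where ties lower it. Their counts hold no spread between WT samples and cannot be read as numbers of genes that differ between the groups. Cdkn1a passed among the untied genes (adjusted p = 0.0224).

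Deviations of same-numbered arrays from their group means gave r = 0.19 for replicate 1 and -0.20 for replicate 2, across genes. With 2 WT arrays, the deviations of each mirror those of the other. These values therefore cannot decide whether same-numbered arrays belong together. With the replicate block, 0 targets passed and their median was 0.05. No sample group was large enough for a test of outlying arrays.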
